A study of Mus musculus with 8 samples.

Results

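Collagen IV chains, nidogens and perlecan build the sheet of matrix that basement membranes rest on. They were followed here as the 9 genes Col4a1 to Col4a6, Nid1, Nid2 and Hspg2, taken by symbol from a table of 53921 named gene rows, and all 9 were among the 15324 genes that passed the expression filter. The RNA came from mouse induced cardiomyocytes, which are fibroblasts pushed towards a heart muscle identity by added transcription factors. The comparison, at day 5, has 2 arms of 2 libraries. Cells of the shNT arm received MGT and the control hairpin shNT, and cells of the shGrhl3 arm received MGT and a hairpin against Grhl3, a Grainyhead-like transcription factor. MGT stands in this field for Mef2c, Gata4 and Tbx5, and both arms received it, so no library shows the fibroblasts before reprogramming. The share of cells that took it up is not shown by these counts. The hairpins were delivered by lentivirus. Whether an arm's libraries came from separate cultures or animals is not stated, so each p-value reflects only how far these libraries differ, and that spread may be technical. The count columns of this arm are named shGrhl1 and shGrhl2 and were read as its replicates 1 and 2. Another reading is that each name gives its own target, Grhl1 in one library and Grhl2 in the other. The arm would then hold 1 library of each of 2 treatments, and its SD, n = 2 and p-values would not describe replicates of 1 treatment. The title of the series asks how Grhl3 and the extracellular matrix bear on the change of cell fate.

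Collagen IV forms an open network of triple-helical molecules, each wound from 3 chains. The products of Col4a1 and Col4a2 share the trimer present in nearly all basement membranes. Those of Col4a3 and Col4a4 join the Col4a5 chain in the filter of the kidney and a few other sites, and Col4a5 also pairs with Col4a6 around smooth muscle and under some epithelia. The nidogens, made from Nid1 and Nid2, tie this network to the laminin network, and perlecan, the heparan sulfate proteoglycan made from Hspg2, adds further ties and holds growth factors. In the heart, basement membrane surrounds each muscle cell and each capillary.

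The libraries held 16102839 to 19822541 counts in named rows, of which the 9 genes took 1.58% to 1.77%. Grhl3 itself had 31 and 14 counts in shNT and 11 and 19 in shGrhl3, with overlapping arms and an adjusted p of 0.311 (edgeR quasi-likelihood test), so its mRNA does not check the hairpin. Grhl1, a relative of Grhl3, had 13 and 3 counts against 26 and 24 (adjusted p = 0.0549), and Grhl2 had 5 or fewer in every library. The ribosomal RNA row Rn18s took 0.573% and 2.00% of counts in shNT against 0.0959% and 0.156% in shGrhl3. Of all tested genes 35.2% passed the 0.05 threshold on the adjusted p in edgeR, 17.2% as higher and 18.1% as lower. Of 10 fibroblast markers 8 passed, 2 higher and 6 lower. Of 10 cardiomyocyte markers 5 were higher and 1 was lower. Of 10 leukocyte markers tested 9 were lower and 1 was higher. The summed level of all 11 in the list was 662 and 910 CPM in shNT against 153 and 122 CPM in shGrhl3. Most of that sum was Lyz2, at 454 and 645 CPM in shNT and 102 and 75.7 CPM in shGrhl3. The unit CPM is the usual depth-scaled count, here with library sizes corrected by the trimmed mean of M-values (TMM).

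The genes of collagen IV lie in head-to-head pairs, with start sites back to back and transcription running outward. On GRCm38.p6, the assembly behind mm10, Col4a1 spans chr8:11198423-11312889 and Col4a2 chr8:11312805-11449287. Col4a4 spans chr1:82448419-82587034 and Col4a3 chr1:82586921-82722059. Col4a6 spans chrX:141165403-141474095 and Col4a5 chrX:141475370-141689236. Nid1 lies at chr13:13437602-13512275, Nid2 at chr14:19751257-19811787 and Hspg2 at chr4:137468751-137570630. These are RefSeq spans of whole genes, introns included.

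The shared start regions are shown because the pairs are compared below, and the Nid1 promoter because Nid1 had the largest fall of the 9 genes. In the RefSeq promoter table (250 bases before to 50 after each start site, GRCm38.p6) 7 of the 9 genes had an entry, all but Col4a3 and Nid2. The start sites of Col4a1 and Col4a2 overlap by 22 bases (chr8:11312805-11312826, plus strand). Between the start site of Col4a4 and the start of Col4a3 lie 71 bases (chr1:82586850-82586920, minus strand), while Col4a5 and Col4a6 start 1342 bases apart. The overlap lies in both of its genes, the gap lies inside the span of longer Col4a4 models, the AACCGG stretch lies inside the Col4a3 gene, and the Nid1 stretch lies before the gene. Capitals mark a match, on either strand, to one of the motifs described after the sequences.
Col4a1/Col4a2 overlap: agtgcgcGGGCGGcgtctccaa
Col4a3/Col4a4 gap: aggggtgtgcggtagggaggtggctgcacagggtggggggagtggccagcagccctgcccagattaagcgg
Nid1, 200 bases before the start (chr13:13437402-13437601, plus strand): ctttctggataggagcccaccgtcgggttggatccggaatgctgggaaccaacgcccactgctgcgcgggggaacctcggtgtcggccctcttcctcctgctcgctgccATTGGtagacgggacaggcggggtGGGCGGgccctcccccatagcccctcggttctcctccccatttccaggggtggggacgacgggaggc
Col4a4, 27 bases around an AACCGG (chr1:82587055-82587081, minus strand): ctgtcccttcAACCGGgcatcttgccc

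In all, 5 short motifs were searched on both strands of the 300-base windows. GGGCGG, the core of GC boxes, was present in 6 of the 7 windows and in 35.7% of all 32851 windows of the table. The match of Col4a1 is also a match of Col4a2, since it lies in the overlap shown above, so these windows are not separate. CCAAT was present in 4 of 7 (Col4a1, Col4a2, Col4a5 and Nid1) and in 37.4% of all windows. TATAAA was in 0 of 7 and in 13.6% of all. AACCGGTT, the palindrome that Grainyhead-like factors are known to bind, was in 0 of 7 and in 0.146% of all. Its shorter part AACCGG, which any AACCGGTT also holds, was found in 1 of 7 windows, that of Col4a4 at 222 to 217 bases before the start, and in 6.83% of all. The gap between Col4a4 and Col4a3 holds none of these letters. A match describes the letters of a window and is not a binding site, and no match says nothing about the factor outside it.

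Across the 9 genes 2 rose and 2 fell in shGrhl3 cells, and 5 did not pass. Col4a3 and Col4a4 rose, Nid1 and Col4a2 fell, and Col4a1, Col4a5, Col4a6, Nid2 and Hspg2 did not reach the 0.05 threshold on the adjusted p (quasi-likelihood test of edgeR). A call was common in this comparison: 35.2% of all tested genes passed, 17.2% as higher and 18.1% as lower, so 4 of 9 is near the background. The median log2 fold change (shGrhl3 over shNT) was 0.04 over the 9 genes and -0.01 over all tested genes. In bulk RNA, fewer cells of a type and less RNA per cell cannot be told apart.

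**Figure D1:**
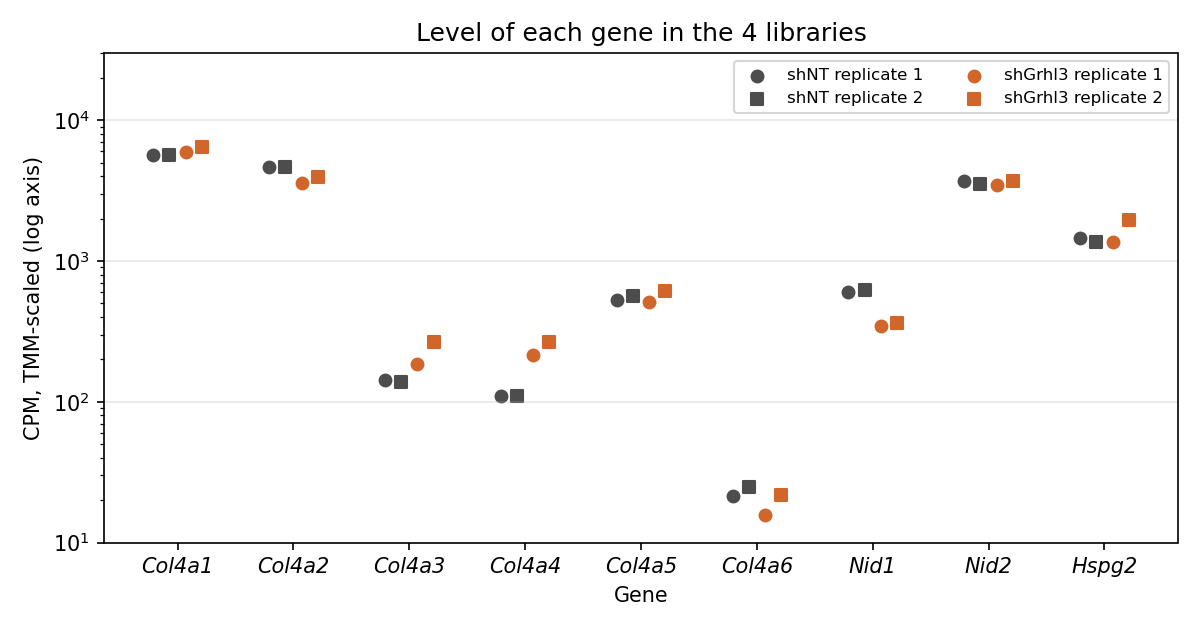
Level of each of the 9 genes in CPM (log axis) in the 2 shNT libraries (grey) and the 2 shGrhl3 libraries (orange), 1 point per library. The shGrhl3 points lie above both shNT points for Col4a3 and Col4a4 and below them for Nid1 and Col4a2; those of Col4a1 also lie above, without passing the test.

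**Figure D2:**
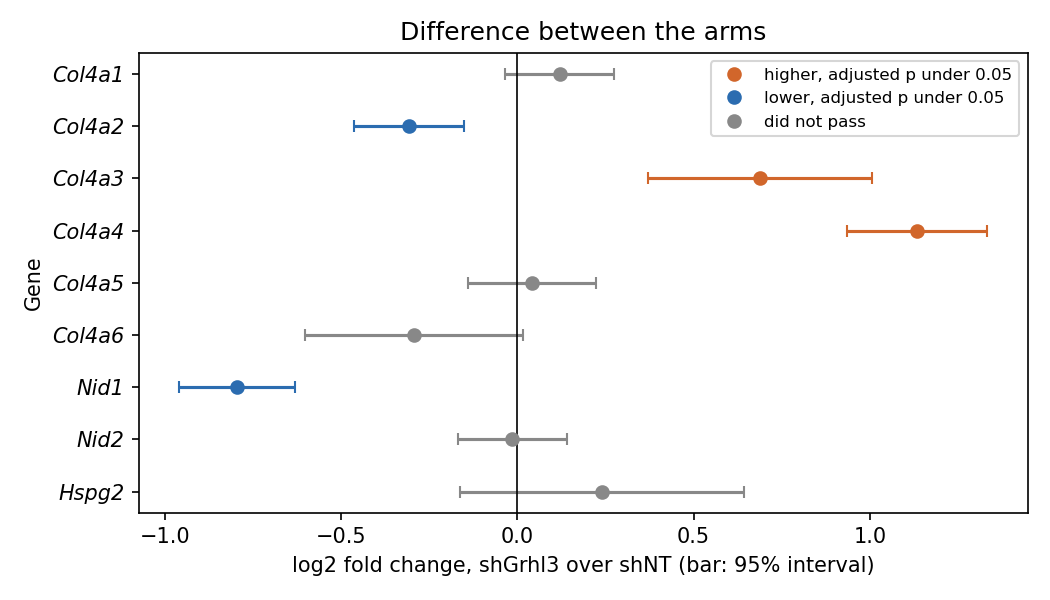
Log2 fold change of each gene, shGrhl3 over shNT, with its 95% interval. The intervals of Col4a3 and Col4a4 lie above 0, those of Nid1 and Col4a2 lie below it, and the other 5 reach across 0.

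Of the genes of the common collagen IV trimer, Col4a2 fell and Col4a1 did not pass. Col4a1 stood at 5682 and 5702 CPM in shNT and at 5909 and 6462 CPM in shGrhl3. Both shGrhl3 libraries lay above both shNT libraries, but the difference did not pass (log2 fold change 0.12, 95% interval -0.03 to 0.27, adjusted p = 0.224 in edgeR). Without shGrhl3 replicate 1 it did pass, at 0.18 and an adjusted p of 0.0313. Col4a2 stood at 4668 and 4629 CPM in shNT and at 3565 and 3945 CPM in shGrhl3. Here both shGrhl3 libraries lay below, and its mean fell from 4648 ± 28.0 to 3755 ± 269 CPM (SD, n = 2), a log2 fold change of -0.31 (SE 0.08) with an adjusted p of 0.00260 in edgeR. The Col4a2 call was lost without shNT replicate 1 (adjusted p = 0.0827) and without shNT replicate 2 (0.0709), with log2 fold changes of -0.30 and -0.31.

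Both Col4a3 and Col4a4, the pair whose chains build the kidney-type trimer, rose. Col4a4 had 110.4 and 109.3 CPM in shNT and 216 and 266 CPM in shGrhl3. The arms did not overlap, and the mean rose 2.19-fold from 109.8 ± 0.738 to 241 ± 35.8 CPM (SD, n = 2), with a log2 fold change of 1.13 (SE 0.10) and an adjusted p of 3.54e-09 in edgeR. Col4a3 had 143 and 138 CPM in shNT and 187 and 265 CPM in shGrhl3. It rose 1.61-fold, from 140.3 ± 3.76 to 226 ± 55.4 CPM (SD, n = 2), with a log2 fold change of 0.69 (SE 0.14) and an adjusted p of 0.00398 in edgeR. In both genes shGrhl3 replicate 2 was the higher library of its arm. With shGrhl3 replicate 2 left out the log2 fold change was 0.43 for Col4a3 and 0.99 for Col4a4, and both calls held in all 13 alternative analyses. The 9 markers of podocytes and kidney epithelium, cells best known for these chains, summed to 295 and 304 CPM in shNT and 241 and 278 CPM in shGrhl3, nearly all of it Synpo. Of the 4 tested, 1 was lower (Synpo) and 0 were higher, Umod and Pax8 were at 0, and the podocyte gene Nphs1 had 8 counts or fewer in each library. The 10 epithelial markers summed to 12.0 and 13.7 CPM in shNT and 29.0 and 24.5 CPM in shGrhl3. Of the 4 tested, Krt7 and Krt18 were higher and 0 were lower, and Krt5 and Esrp1 were at 0. The part of epithelial cells in the rise of Col4a3 and Col4a4 was not tested.

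Col4a5, whose chain takes part in both of the rarer trimers, did not pass. It had 530.3 and 562 CPM in shNT and 509 and 615 CPM in shGrhl3, so the arms overlapped (log2 fold change 0.04, 95% interval -0.14 to 0.22, adjusted p = 0.752 in edgeR). Col4a6 was the lowest of the 6 chains in counts, with 412 and 393 in shNT and 317 and 410 in shGrhl3. Its levels of 21.5 and 24.7 CPM in shNT and 15.8 and 21.9 CPM in shGrhl3 overlapped, with a log2 fold change of -0.29 (95% interval -0.60 to 0.02, adjusted p = 0.135 in edgeR). One library decides that value: without shGrhl3 replicate 2, Col4a6 passed as lower (-0.53, adjusted p = 0.00887).

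Of the nidogens, Nid1 fell and Nid2 did not pass. Nid1 had 605 and 619 CPM in shNT and 344 and 362 CPM in shGrhl3. The arms were far apart and the libraries of each close together: the mean of Nid1 fell from 612 ± 10.1 to 353 ± 12.6 CPM (SD, n = 2), a log2 fold change of -0.79 (SE 0.08) with an adjusted p of 3.74e-08 in edgeR. The call held in all 13 alternatives, at log2 fold changes of -0.81 to -0.76. Nid2, the second nidogen, had 3685 and 3543 CPM in shNT and 3470 and 3689.8 CPM in shGrhl3, with overlapping arms (log2 fold change -0.01, 95% interval -0.17 to 0.14, adjusted p = 0.911 in edgeR).

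Hspg2 was uneven within its arm. The perlecan gene had 1449 and 1370 CPM in shNT and 1371 and 1959 CPM in shGrhl3, so 1 shGrhl3 library lay within the range of the shNT libraries and the other above it. The log2 fold change was 0.24 (95% interval -0.16 to 0.64, adjusted p = 0.324 in edgeR). Without shGrhl3 replicate 1 it was 0.48 with an adjusted p of 7.16e-09, and without shGrhl3 replicate 2 it was -0.02 with an adjusted p of 0.880.

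Ratios inside a library do not depend on how libraries are scaled, and they show how paired genes moved against each other. The size of such a ratio depends on transcript length, which is not used here, so only its difference between arms is read. There were 1.22 and 1.23 counts of Col4a1 for each count of Col4a2 under shNT and 1.66 and 1.64 under shGrhl3. The log2 ratio went from 0.29 ± 0.01 under shNT to 0.72 ± 0.01 under shGrhl3 (SD, n = 2), a difference of 0.43, larger than the spread between libraries. Leaving out any 1 library gave 0.42 to 0.44.

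Col4a3 and Col4a4 rose together but not equally. There were 1.30 and 1.26 counts of Col4a3 per count of Col4a4 in shNT and 0.866 and 0.996 in shGrhl3. The log2 ratio went from 0.35 ± 0.03 to -0.11 ± 0.14 (SD, n = 2), a difference of -0.46. For Col4a5 over Col4a6 the ratio was 24.6 and 22.7 in shNT and 32.2 and 28.0 in shGrhl3, a difference of 0.35 on the log2 scale, resting on the low counts of Col4a6. In all 3 pairs the arms did not overlap, and how often this holds among other gene pairs was not counted. With 2 libraries against 2, the exact two-sided permutation test cannot go below p = 0.333, which is the p of each pair before and after adjustment over the 3 pairs.

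Shifts of this absolute size were common among head-to-head genes. Among 424 pairs of tested genes in the promoter table that start back to back within 1500 bases of each other (overlap up to 100 bases, at least 100 counts in each library), the median absolute difference of the log2 ratio between arms was 0.31. Of these pairs, 35.1% differed by at least as much as Col4a1 and Col4a2, 33.0% by at least as much as Col4a3 and Col4a4, and 43.6% by at least as much as Col4a5 and Col4a6. Shifts of this absolute size were thus not particular to the collagen IV pairs. The comparison takes no account of the spread between libraries, which counting error widens for pairs near 100 counts. It therefore does not say how common shifts this far beyond their spread are. Col4a3 and its partner are not among the 424, while the other collagen IV pairs are. Nid1 over Nid2, which lie on different chromosomes and were added after their values were seen, went from 0.164 and 0.175 to 0.0991 and 0.0981 counts of Nid1 per count of Nid2.

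**Figure D3:**
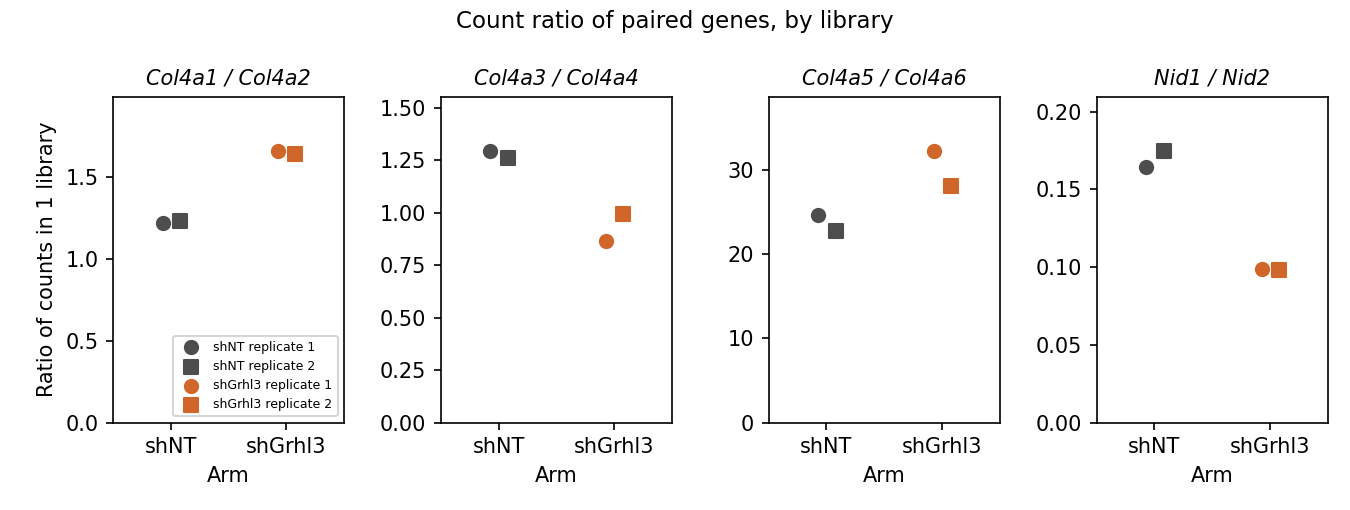
Ratio of the counts of the first to the second gene in each library, for the 3 head-to-head pairs and for Nid1 over Nid2, 1 point per library on axes that start at 0. Col4a1 over Col4a2 moves from 1.22 and 1.23 in shNT to 1.66 and 1.64 in shGrhl3, and Col4a3 over Col4a4 moves the other way.

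Taken by pair, Col4a1 and Col4a2 together held most of the collagen IV counts in both arms. Inside that pair the balance shifted, as the ratio above shows. Of all counts of the 6 chains, Col4a1 and Col4a2 took 92.8% and 92.5% in shNT and 91.1% and 89.9% in shGrhl3. Col4a3 and Col4a4 took 2.27% and 2.21% in shNT and 3.87% and 4.59% in shGrhl3, with no overlap between arms. Col4a5 and Col4a6 took 4.95% and 5.25% against 5.05% and 5.50%, with overlap. These shares are of reads and not of molecules, since they are not corrected for length.

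The 5 genes whose levels over the 4 libraries were most like the mean profile of Col4a3 and Col4a4 were Rbm20, Ndst1, Sh3tc2, Fhdc1 and Tmem94. Likeness was the smallest Euclidean distance between log2 CPM profiles centred on their mean, among 8132 genes with a mean log2 CPM of at least 4, predicted genes left out. The distances were 0.0828 to 0.106. Rbm20, a splicing regulator of heart muscle, had 54.2 and 52.4 CPM in shNT and 91.4 and 112 CPM in shGrhl3. Ndst1, an enzyme of heparan sulfate synthesis, had 216 and 208 CPM in shNT and 362 and 441 CPM in shGrhl3. With 4 libraries in 2 arms, this measure mostly finds genes with a similar fold change.

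Among the laminin chains, which form the second network of the basement membrane, 3 of 11 were higher, 2 were lower and 6 did not pass. The share that passed was 45.45%, against 35.2% of all tested genes. This list and those that follow were chosen with earlier results of these data known. A share above that of all tested genes is therefore not read as a result about a list. Lamb3, a beta chain of epithelial laminin, rose from 2.24 ± 0.658 to 21.1 ± 1.46 CPM (SD, n = 2). Lamc1, the gamma chain of most laminins and the one that nidogen binds, went up from 837 ± 16.02 to 1127 ± 170 CPM, with an adjusted p of 0.000647 in edgeR, while Nid1 fell. Of the epithelial markers given above, Krt7 and Krt18 rose in the same arm as Lamb3, while Krt8 and Krt19 did not pass. Epcam and Cdh1 had 4 counts or fewer in each library. The part of epithelial cells in the rise of Lamb3 was not tested. Lama4, an alpha chain of vessel and muscle basement membranes, fell from 308 ± 17.6 to 201 ± 14.5 CPM. The count of rising laminin chains was 5 without shGrhl3 replicate 1, and that of falling chains was 1 without shNT replicate 1. The median log2 fold change of the list was 0.10.

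Other basement membrane proteins were divided, with 6 of 20 tested higher, 7 lower and 7 that did not pass (median log2 fold change -0.08). In this list 65% passed, against 35.2% of all tested genes. Tinagl1, a secreted laminin-associated glycoprotein, rose from 252 ± 14.6 to 544 ± 17.8 CPM, and the calcium-binding matrix gene Smoc2 from 179 ± 16.5 to 311 ± 3.34 CPM (SD, n = 2). Col7a1, the anchoring fibril collagen of skin, fell from 25.04 ± 1.27 to 9.25 ± 0.888 CPM. Frem1, of the Fraser complex, fell from 16.6 ± 1.86 to 5.90 ± 1.57 CPM. It did not stand for that complex, whose genes Fras1 and Frem2 rose. Fras1 went from 74.0 ± 6.01 to 238 ± 59.5 CPM and Frem2 from 3.93 ± 0.655 to 7.48 ± 3.73 CPM.

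Genes that fold, export and crosslink collagen IV gave 10 higher of 22 tested, 3 lower and 9 that did not pass (median log2 fold change 0.22). Thus 59.09% passed, against 35.2% of all tested genes, of which 17.2% were higher and 18.1% lower. These enzymes also serve the fibrillar collagens. P4hb, a subunit of prolyl 4-hydroxylase and a disulfide isomerase, went up from 1150 ± 2.53 to 2292 ± 43.6 CPM, with an adjusted p of 4.66e-10 in edgeR. Serpinh1, the collagen chaperone, rose from 1040 ± 47.8 to 1705 ± 71.8 CPM, and the prolyl hydroxylase subunit P4ha2 from 60.4 ± 1.36 to 105 ± 4.66 CPM. Loxl2, a lysyl oxidase known to crosslink collagen IV, fell from 1018 ± 65.5 to 567 ± 49.6 CPM. The other genes that fell, named because they are few, were Crtap and P3h3, with log2 fold changes of -0.61 and -0.55. They did not stand for their family: P3h1 rose (log2 fold change 0.55), and P3h2 and P3h4 did not pass (-0.12 and -0.07).

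Receptors of these proteins were also divided, with 5 of 16 tested higher, 4 lower and 7 that did not pass (median log2 fold change -0.01). Here 56.25% passed, against 35.2% of all tested genes. Dag1, whose product dystroglycan binds laminin and perlecan, rose from 1081 ± 47.7 to 1928 ± 229 CPM (SD, n = 2). The laminin-binding Itga7 of muscle rose from 315 ± 3.39 to 467 ± 9.41 CPM. Itgb5 fell from 762 ± 37.0 to 502 ± 21.0 CPM and Itgb3 from 25.2 ± 0.362 to 13.7 ± 0.176 CPM. The alpha chains of the collagen-binding integrins, named after their values were seen, are Itga1, Itga2, Itga10 and Itga11. Of these Itga10 rose from 5.58 ± 0.317 to 12.9 ± 0.667 CPM (SD, n = 2), and Itga1, Itga2 and Itga11 did not pass (log2 fold changes -0.18, -0.12 and 0.18).

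Proteases and inhibitors of the basement membrane counted 7 higher, 4 lower and 7 that did not pass among 18 tested (median log2 fold change 0.20). Their share that passed was 61.11%, against 35.2% of all tested genes. Mmp15, a membrane-bound metalloproteinase, rose from 22.1 ± 0.926 to 178 ± 1.89 CPM, and Plau, the urokinase that activates plasminogen, from 23.5 ± 1.03 to 50.9 ± 0.830 CPM (SD, n = 2). Ctsb and Ctss, lysosomal cathepsins, fell from 1043 ± 126 to 561 ± 35.2 CPM and from 94.7 ± 13.1 to 10.1 ± 1.14 CPM. Ctss is itself one of the 9 leukocyte markers that were lower in shGrhl3, while the leukocyte marker Csf1r was higher (log2 fold change 1.30). The part of leukocytes in the fall of Ctss was not tested. Without shNT replicate 1 the count of rising genes was 4.

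**Figure D4:**
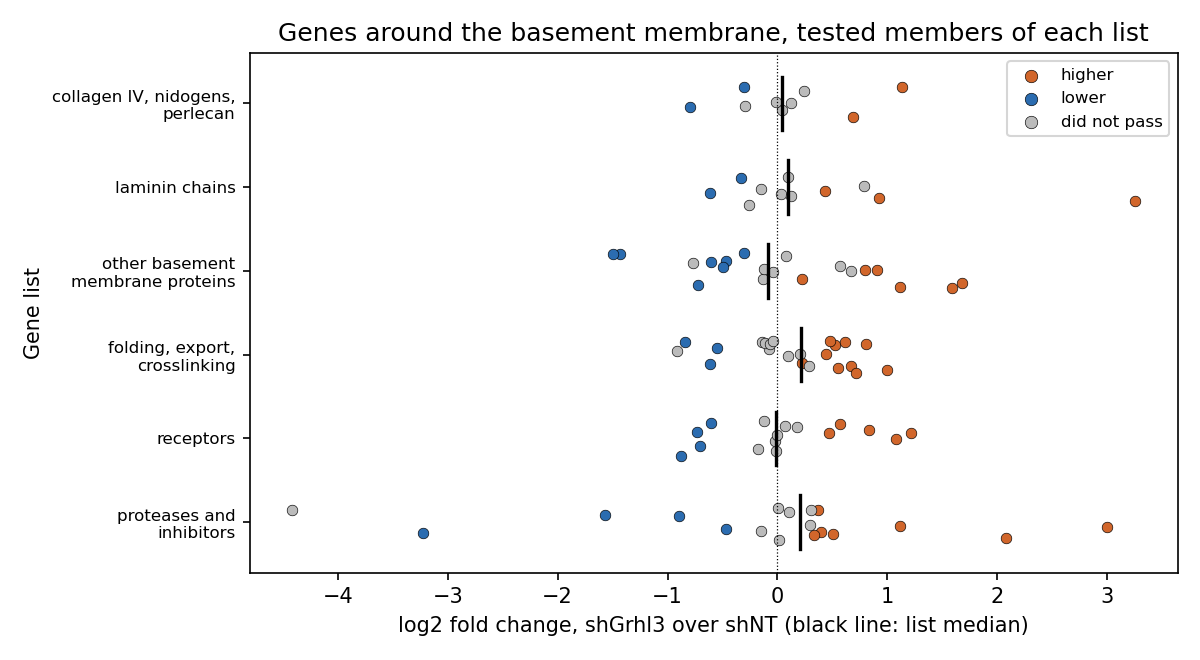
Log2 fold change (shGrhl3 over shNT) of every tested gene of 6 lists, with the list median as a black line. Orange points rose, blue points fell and grey points did not pass. The list medians lie between -0.08 and 0.22, and each list has genes on both sides of 0.

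Genes used as markers of vessel cells, which lie on or in basement membrane, were also summed. The 11 endothelial markers summed to 67.3 and 64.2 CPM in shNT and to 52.6 and 47.8 CPM in shGrhl3, and none of the 11 was at 0 in all libraries. Of them 2 passed as lower and 0 as higher, a share of 18.18% against 35.2% of all tested genes. The summed level of 9 smooth muscle and pericyte markers was 2878 and 2749 CPM in shNT and 2598 and 2442 CPM in shGrhl3, with 2 higher (Cspg4 and Notch3), 2 lower (Tagln and Cnn1) and 5 that did not pass. Most of that sum was Acta2, which had 2307 and 2178 CPM in shNT and 2099 and 1915 CPM in shGrhl3 and did not pass (adjusted p = 0.113 in edgeR). The sum thus follows mostly that gene and does not measure how many vessel cells were present. The part of these cells, and of leukocytes, in the fall of Nid1 and Col4a2 was not tested.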

How the data were processed

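The values are raw gene counts of the 4 RNA-seq libraries, as the authors deposited them in 1 table; the CUT&Tag samples of the series were not analysed here. Per the submitters' processing notes, cutadapt 1.9.1, HISAT2 2.0.1, Bowtie2 2.2.6, MACS2, ChIPseeker and mm10 were used, without their roles. Not given in the sources used here: the counting program, its annotation and strand setting, and how multi-mapping reads were handled. Columns named shGrhl1 and shGrhl2 were read as replicates 1 and 2 of shGrhl3, the only hairpin target the labels name; the names could also mean hairpins against Grhl1 and Grhl2. Of 55359 rows, 1438 named no gene (0.00432% to 0.00872% of counts) and were left out.

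Genes were filtered with filterByExpr (minimum count 10) and tested with edgeR 4.0.16 in R 4.3.3 (TMM scaling, robust quasi-likelihood F test with bias-adjusted deviances, Benjamini-Hochberg adjustment over 15324 genes, threshold 0.05). SEs and 95% intervals derive from the F statistic, and ± is the SD of 2 libraries. The code was checked on simulated counts. Chi-square per degree of freedom was 15.4 within shNT and 9.33 within shGrhl3, above sampling noise, so no library was a copy of another. Ratios of paired genes used a pseudocount of 0.5. At these depths counting error is small for all 9 genes except Col4a6.

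The genes and lists were chosen with earlier results of these data known. The rule for named genes takes the 9 genes, Grhl3, at most 4 called genes of each list, ranked by p, and the 5 nearest profiles. Grhl1, Grhl2, Crtap, P3h1, P3h2, P3h3, P3h4, Itga1, Itga2, Itga10, Itga11, Fras1, Frem2 and single marker genes were named after their values were seen. Some genes of the lists are not reported here by name. Alternatives were other scalings, filters and tools (DESeq2 1.42.0, limma-voom 3.58.1), summed symbols, a replicate block, each library left out, and, added after seeing the data, Rn18s left out and the Nid1 and Nid2 ratio.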

Additional observations from a re-analysis of the deposited data

How the results depend on the processing

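Over 13 alternatives, Col4a3, Col4a4 and Nid1 kept their direction and their call. Log2 ratio differences of the paired genes kept their direction in each alternative run for them. Leaving out single libraries changed the rest, and for Nid2 a change of scaling did so too. The number of the 9 genes that rose was 2 to 4 and that fell 1 to 3. Log2 fold changes ranged from 0.074 to 0.18 for Col4a1, -0.36 to -0.24 for Col4a2, -0.080 to 0.17 for Col4a5, -0.53 to -0.071 for Col4a6, -0.041 to 0.031 for Nid2 and -0.020 to 0.48 for Hspg2. Col4a5 reversed without shNT replicate 1 (-0.00094) and without shGrhl3 replicate 2 (-0.080). Nid2 reversed with library size only (0.011), without shNT replicate 1 (0.01) and without shGrhl3 replicate 1 (0.031). In size these values, and the main one of -0.01, are below the SE of 0.07 in the main fit. The cause of the reversals was not tested. The replicate numbers did not pair the libraries (correlation of their deviations -0.06), and with a replicate block 2436 genes rose and 2607 fell, against 2632 and 2769 without it, with no change to the calls of the 9 genes. With a library left out, 1 arm has a single library that is assumed to vary like the other arm. DESeq2 called 2093 genes higher and 2141 lower. With 2 libraries an arm, a p that missed the threshold does not show that a gene did not differ.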
